A study of Mus musculus with 7 samples.

Results

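Glutathione, the thioredoxin system and the genes switched on by the transcription factor NRF2 were followed in mouse liver through 10 genes, chosen by name for their place in the defence of membranes against lipid peroxidation: Gpx1, Gpx4, Slc7a11, Slc3a2, Gclc, Gclm, Gsr, Txnrd1, Nqo1 and Aifm2. They were 10 of 23347 genes in the deposited count table, and all 10 passed the filter on low counts that left 15179 genes for testing. RNA-seq was carried out on whole liver of male mice on a C57BL/6 background that had received CDAHFD, a diet high in fat that lacks choline and supplies protein as defined amino acids, for 15 weeks, beginning in young adulthood. In 4 mice B4galt1, the gene of a galactosyltransferase of the Golgi, carried loxP sites on both alleles without Cre (B4galt1 flox/flox), and in 3 mice the same alleles were combined with Cre under the albumin promoter, which acts in hepatocytes (labelled B4galt1 hep-/-). All 7 mice received the diet, so the comparison describes the genotype on CDAHFD and not the effect of the diet. The study's methods describe the controls as littermates, and the labels do not say which mice shared a litter.

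Polyunsaturated fatty acids in membrane phospholipids are oxidized to lipid hydroperoxides, and unchecked accumulation of these leads to ferroptosis, an iron-dependent form of cell death. The main brake is glutathione, a tripeptide made from glutamate, cysteine and glycine. Cystine is carried into the cell by the exchanger formed by SLC7A11 and SLC3A2, the joining of glutamate and cysteine is catalysed by the GCLC and GCLM subunits of glutamate-cysteine ligase, and glutathione peroxidases spend glutathione to reduce peroxides, after which GSR restores it with NADPH. TXNRD1 recharges thioredoxin, and AIFM2, also called FSP1, protects membranes by reducing coenzyme Q without glutathione. NRF2, held in check by KEAP1, switches on many of these genes through antioxidant response elements. In the liver the hepatocyte is the main site of glutathione synthesis and export.

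Promoter sequence was available for 8 of the 10 genes in RefSeq (GRCm38.p6), with 13 annotated start sites. Gclc and Gsr were not among them. The 150 bases before the start are shown, 5′ to 3′ on the gene's strand, for the 2 genes whose transcript fell (Gpx1 and Txnrd1), for Gclm because it held a match to the antioxidant response element, and for Slc7a11 because it held matches to the amino acid response element, through which ATF4 acts. Capitals mark matches to either motif. The regions are chr9:108338930-108339079 on the plus strand for Gpx1, chr10:82859056-82859205 on the plus strand for the Txnrd1 start that held a match, chr3:122245407-122245556 on the plus strand for Gclm, and chr3:50443614-50443763 on the minus strand for Slc7a11.
Gpx1: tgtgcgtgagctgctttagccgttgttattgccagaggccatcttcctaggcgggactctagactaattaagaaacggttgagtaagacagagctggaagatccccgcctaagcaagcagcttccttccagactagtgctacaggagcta
Txnrd1: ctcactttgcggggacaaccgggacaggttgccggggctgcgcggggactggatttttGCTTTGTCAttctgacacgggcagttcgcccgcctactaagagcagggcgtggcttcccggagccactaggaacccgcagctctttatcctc
Gclm: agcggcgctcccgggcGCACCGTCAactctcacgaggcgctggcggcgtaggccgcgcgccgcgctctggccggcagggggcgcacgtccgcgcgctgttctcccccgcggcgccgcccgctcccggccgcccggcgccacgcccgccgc
Slc7a11: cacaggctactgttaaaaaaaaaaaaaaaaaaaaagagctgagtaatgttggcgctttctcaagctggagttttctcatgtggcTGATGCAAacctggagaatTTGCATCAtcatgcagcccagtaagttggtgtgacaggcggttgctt
The antioxidant response element core was searched as TGACNNNGC on both strands. The search covered 300 bases, from 250 before the start to 50 after it. The match began 92 bases before the Txnrd1 start, at 1 of the 3 starts annotated for that gene, and 134 bases before the Gclm start, and was found at no other start of the 8 genes. The same letters occurred in 12.4% of all 32851 promoters over the same 300 bases. The amino acid response element was searched as TGATGNAA on both strands, and was found 66 and 47 bases before the Slc7a11 start in opposite orientations, whereas 3.97% of all promoters held at least 1 match and 0.0700% held 2 or more. No promoter shown held both motifs. These matches are descriptions of the sequence and not measured binding sites.

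The libraries held 37838654 to 39668509 counts in the flox/flox mice and 30608271 to 34586588 in the hep-/- mice. B4galt1 itself stood at 48.7, 53.0, 49.2 and 51.6 CPM (counts relative to library size, scaled by TMM factors) in flox/flox mice 1 to 4 and at 28.4, 23.9 and 53.7 in hep-/- mice 1 to 3. Mice 1 and 2 were below the controls, and mouse 3 was above all 4 of them, so the groups overlapped in CPM (log2 fold change -0.52, SE 0.26, adjusted p = 0.181 in the quasi-likelihood test of edgeR, adjusted after Benjamini and Hochberg). In FPKM, which the authors scaled by gene length and by all counts of a library, mitochondrial genes included, mouse 3 stood at 11.9, just below the lowest control at 12.2, while mice 1 and 2 stood at 6.47 and 6.52. The transcript of mouse 3 was thus near the level of the controls on both scales, and Gpx1, Txnrd1 and the called genes of the pathway lists are also given without this mouse. Mitochondrially encoded genes took 5.79% ± 1.70 (SD, n = 4) of counts in flox/flox and 19.7% ± 4.58 (SD, n = 3) in hep-/- liver, with no overlap (exact permutation test, two-sided, p = 0.0286, the smallest that 4 against 3 mice allow). Of 11 macrophage markers, 7 were lower and 0 higher by edgeR (9 and 0 at an unadjusted p under 0.05), 8 and 0 by DESeq2, and their summed CPM ran from 1426 to 3368 in flox/flox and from 665 to 786 in hep-/- liver, with no marker at 0. Hepatocyte markers were abundant in all mice, and the summed CPM of 9 hepatocyte markers ran from 92983 to 134180.4 and from 102566 to 164067. By edgeR 0 of the 9 passed the test (1 lower and 1 higher at an unadjusted p under 0.05), and DESeq2 called 1 lower and 1 higher. Voom called 1 lower (Cps1) and 0 higher. Limma on log2(FPKM + 1) called 3 lower (Apob, Trf and Cps1) and 0 higher, on a scale with 1733 lower and 561 higher calls over all genes.

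Across the 10 genes the difference between the genotypes ran mainly downwards. A gene was called changed when its adjusted p was under 0.05 and its log2 fold change exceeded 0.58 in size. By this rule 2 of the 10 genes, Gpx1 and Txnrd1, were lower in hep-/- liver, beside 7.83% of all genes tested, and 0 were higher, beside 8.0% of all genes. At an unadjusted p under 0.05, 4 were lower and 0 higher in edgeR, beside 16.1% and 16.8% of all genes, and DESeq2 also called 2 lower and 0 higher. In 4 of the 10 genes (Gpx1, Txnrd1, Slc7a11 and Slc3a2) every hep-/- mouse was below every flox/flox mouse, as in 15.0% of all genes, and in 0 every hep-/- mouse was above, as in 13.6% of all genes. These counts are in CPM. In FPKM there was no overlap for 6 of the 10, with Gpx4 and Gsr added, all lower in hep-/- liver, but on that scale the background was also uneven, with 21.2% of all genes lower and 8.14% higher without overlap. The median log2 fold change of the 10 was -0.37, against 0.02 over all genes. It rested on the middle genes Gpx4 and Gsr and depended on hep-/- mouse 2. Without that mouse Gpx4 was at -0.18 and Gsr at -0.20, and 8 of the 10 were below 0 where all mice gave 9. The 10 genes were picked with results of these data known, so these counts are a description.

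The glutathione peroxidases were the most abundant of the 10, and of the pair Gpx1 fell while Gpx4 did not pass the test. GPX1, a selenoprotein of the cytosol and mitochondria, reduces hydrogen peroxide and free hydroperoxides. Gpx1 stood at 1619.7, 1884, 2033 and 2123 CPM in flox/flox mice 1 to 4 and at 858, 489.9 and 1211 CPM in hep-/- mice 1 to 3. The highest hep-/- mouse lay below the lowest control, and the spread was wider in hep-/- liver (coefficient of variation 42.3% against 11.5%). The mean fell from 1915 ± 220.1 (SD, n = 4) to 853 ± 361 (SD, n = 3), a log2 fold change of -1.17 (SE 0.30, 95% interval -1.82 to -0.52, adjusted p = 0.0249 by edgeR). Without hep-/- mouse 3, whose B4galt1 transcript was near the control level, it was -1.51 (adjusted p = 0.0115 by edgeR). Without flox/flox mouse 2, 3 or 4 or hep-/- mouse 1, the adjusted p by edgeR rose to between 0.0523 and 0.0610, with fold changes of -1.11 to -1.19 on the log2 scale. In whole liver, less RNA per cell cannot be told apart from fewer cells of a type that expresses the gene, and the macrophage markers and the mitochondrial share that moved with genotype did so in the same mice; their part in the fall of Gpx1 was not tested.

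GPX4, the selenoprotein that reduces phospholipid hydroperoxides inside membranes and on which the glutathione arm of ferroptosis defence rests, had a transcript that overlapped between the genotypes in CPM and did not in FPKM. Gpx4 stood at 297, 435, 374 and 483 CPM in flox/flox mice and at 325, 219 and 375 in hep-/- mice. Mice 1 and 3 of the hep-/- group lay within the control range and mouse 2 lay below it. The log2 fold change was -0.38 (SE 0.25, adjusted p = 0.313 by edgeR), with a 95% interval from -0.92 to 0.16, which spans a marked fall and a small rise. It was -0.18 without hep-/- mouse 2 and -0.56 without hep-/- mouse 3. In FPKM Gpx4 stood at 289, 373, 344 and 385 in flox/flox and at 251, 202 and 281 in hep-/- mice, with every hep-/- mouse below the controls. On log2(FPKM + 1) the difference was -0.51, under the fold threshold, with an adjusted p of 0.0477 by limma, and of 0.108 when every gene above 0 was tested. RefSeq lists 2 pseudogenes named after it, Gpx4-ps1 and Gpx4-ps2, and how reads that fit both were counted is not given in the sources used here, which leaves the level of Gpx4 less certain.

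**Figure D1:**
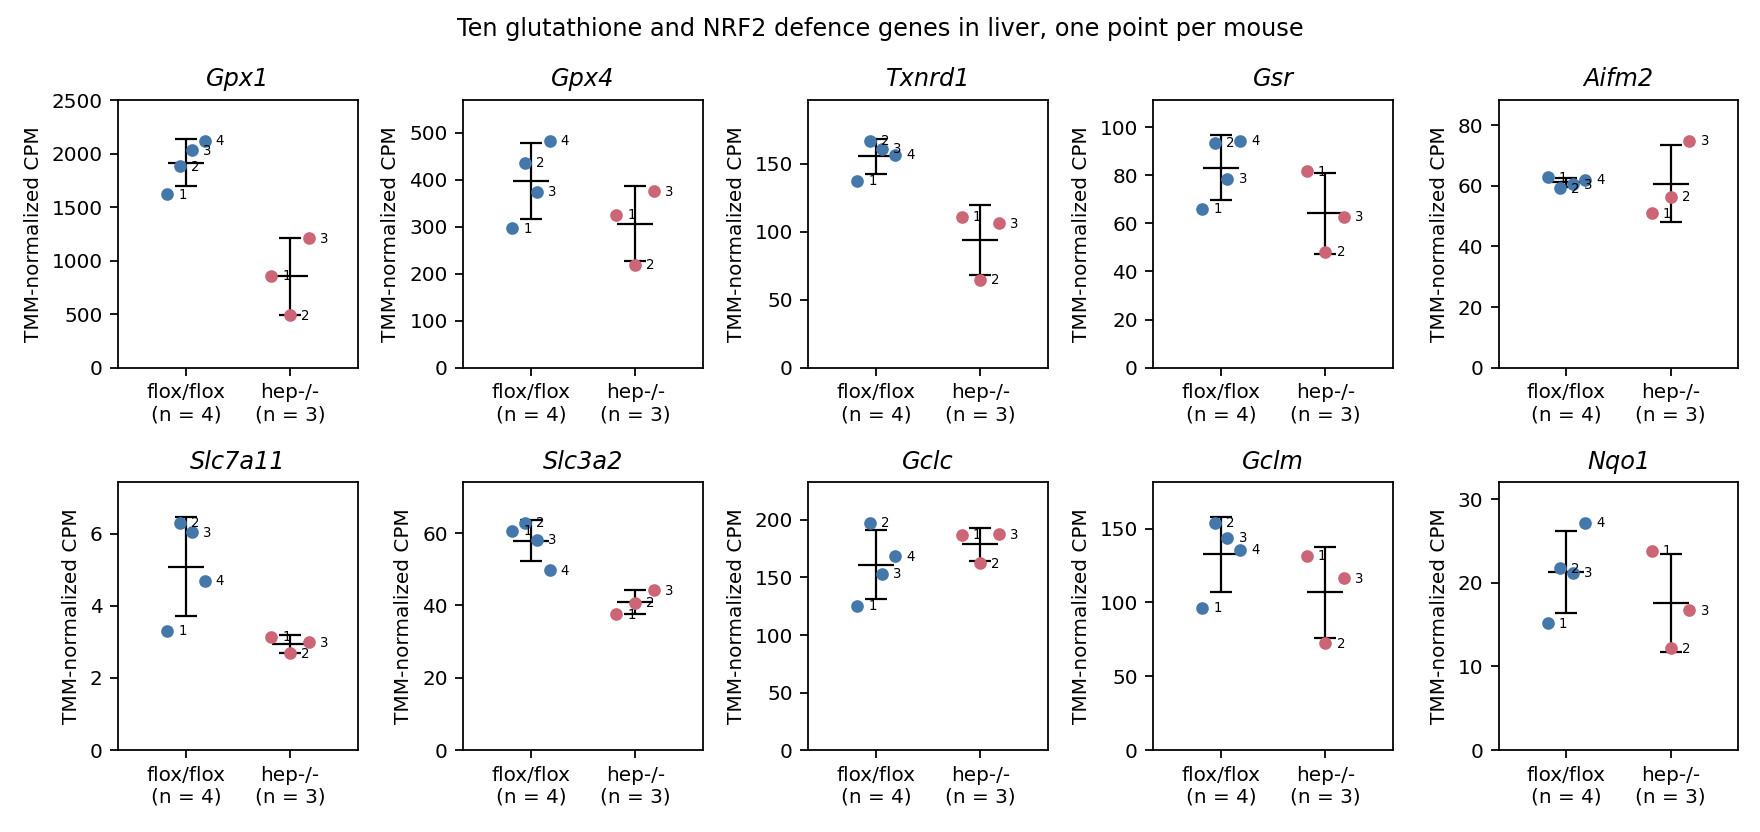
CPM scaled by TMM factors (vertical axes, each from 0) of the 10 genes in B4galt1 flox/flox liver (blue, n = 4) and liver labelled B4galt1 hep-/- (red, n = 3), with 1 numbered point per mouse and the mean with SD in black. Gpx1, Txnrd1, Slc7a11 and Slc3a2 show no overlap between groups, and hep-/- mouse 2 is the lowest of all 7 mice in 7 of the 10 genes.

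Among the reductases, which hand electrons from NADPH to the thiol systems, Txnrd1 fell and Gsr did not pass the test. TXNRD1, the cytosolic thioredoxin reductase and also a selenoprotein, stood at 138, 167, 161 and 156 CPM in flox/flox mice and at 111, 64.5 and 106 in hep-/- mice. All hep-/- mice were below all controls, with mouse 2 the lowest. Txnrd1 fell from 156 ± 12.7 (SD, n = 4) to 93.8 ± 25.5 CPM (SD, n = 3), a log2 fold change of -0.73 (SE 0.22, 95% interval -1.21 to -0.25, adjusted p = 0.0449 by edgeR). This call was close to the threshold. It was kept only without flox/flox mouse 1 or hep-/- mouse 1; leaving out flox/flox mouse 2, 3 or 4 or hep-/- mouse 2 or 3 gave log2 fold changes of -0.83 to -0.52 and adjusted p-values by edgeR of 0.0531 to 0.114, the value without hep-/- mouse 3 being -0.83 with an adjusted p of 0.0531. As for Gpx1, the part of the macrophage markers and of the mitochondrial share in this difference was not tested.

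GSR, which regenerates glutathione from its disulfide, gave 66.1, 93.5, 78.6 and 94.4 CPM for its transcript in flox/flox mice and 81.7, 48.2 and 62.8 in hep-/- mice. The CPM ranges overlapped, with 1 hep-/- mouse inside the control range and the other two below it. The log2 fold change of Gsr was -0.37 (SE 0.22, 95% interval -0.86 to 0.11, adjusted p = 0.265 by edgeR), and ran from -0.20 without hep-/- mouse 2 to -0.60 without hep-/- mouse 1. In FPKM Gsr stood at 28.3, 35.2, 31.7 and 33.0 in flox/flox and at 27.6, 19.5 and 20.6 in hep-/- mice, so that the groups did not overlap, by a narrow margin. The difference on log2(FPKM + 1) was -0.50, also under the fold threshold, with an adjusted p of 0.0474 by limma, and of 0.0851 when every gene above 0 was tested.

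Cystine uptake was represented by both chains of the exchanger, and both had lower values in every hep-/- mouse without passing the test by edgeR. SLC7A11 (xCT) is the transport chain, and its transcript was the rarest of the 10, with 144, 251, 258 and 166 counts in flox/flox and 97, 89 and 91 in hep-/- mice. In normalized form these were 3.31, 6.30, 6.04 and 4.69 CPM against 3.15, 2.68 and 2.99. The gap between the lowest control, mouse 1, and the highest hep-/- mouse was narrow beside the spread among the controls. The log2 fold change of Slc7a11 was -0.79 (SE 0.30, 95% interval -1.45 to -0.13), close in size to that of Txnrd1, but with an unadjusted p of 0.0235 and an adjusted p of 0.0948 by edgeR.

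SLC3A2, the heavy chain that brings SLC7A11 and several other amino acid transporters to the cell surface, had transcript values of 60.7, 62.8, 58.2 and 49.8 CPM in flox/flox mice and of 37.5, 40.7 and 44.2 in hep-/- mice. Both groups were tight, with coefficients of variation of 9.87% and 8.18%, and did not overlap. The log2 fold change of Slc3a2 was -0.50 (SE 0.17, 95% interval -0.88 to -0.13, adjusted p = 0.0674 by edgeR), and its size was under the fold threshold. Its adjusted p was 0.0497 by DESeq2, 0.0274 by voom and 0.0489 by limma on log2(FPKM + 1). In these fits too the size was under the fold threshold (-0.50, -0.56 and -0.52). When every gene above 0 was tested, the adjusted p by limma was 0.093. Of the 4 other partners of SLC3A2 that were tested 0 passed by edgeR, with 1 lower and 1 higher at an unadjusted p under 0.05, while DESeq2 called the same pair, 1 lower (Slc7a8) and 1 higher (Slc7a6). Slc7a8, the light chain of LAT2, was at 15.8 ± 4.22 against 9.62 ± 0.479 CPM (log2 fold change -0.72, adjusted p = 0.0587 by edgeR), and Slc7a6, the light chain of y+LAT2, at 2.72 ± 0.967 against 5.94 ± 3.18 CPM (1.13, adjusted p = 0.0838).

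In glutathione synthesis itself neither subunit of glutamate-cysteine ligase passed the test. GCLC is the catalytic subunit, and Gclc stood at 125, 197, 153 and 169 CPM in flox/flox mice and at 187, 162 and 187 in hep-/- mice. All 3 hep-/- mice were inside the control range. Gclc was the single gene of the 10 with a log2 fold change above 0 (0.15, SE 0.20, 95% interval -0.29 to 0.59, adjusted p = 0.635 by edgeR), with 0.05 without flox/flox mouse 1 and 0.26 without flox/flox mouse 2. GCLM is the modifier subunit that raises the affinity of the enzyme for glutamate, and Gclm stood at 96.5, 154, 144 and 136 CPM in flox/flox mice and at 132, 72.2 and 116 in hep-/- mice. The groups overlapped and only mouse 2 of the hep-/- group was below the controls. Gclm had -0.31 on the log2 scale (SE 0.25, 95% interval -0.85 to 0.22, adjusted p = 0.403 by edgeR). It was -0.10 without hep-/- mouse 2 and -0.51 without hep-/- mouse 1. In GRCm38 annotation the exons of Gclm share 296 bases with Gm17494 on the opposite strand and 244 with Gm6061 on the same strand, so a small part of its reads may be counted differently under other rules.

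NQO1, a quinone reductase often read as an index of NRF2 activity, and AIFM2 had transcripts that did not pass the test. Nqo1 stood at 15.2, 21.7, 21.2 and 27.2 CPM in flox/flox mice and at 23.9, 12.2 and 16.7 in hep-/- mice. Only hep-/- mouse 2 was outside the control range. On the log2 scale Nqo1 differed by -0.28 (SE 0.26, 95% interval -0.84 to 0.29, adjusted p = 0.489 by edgeR). Leaving out hep-/- mouse 2 gave -0.07, leaving out flox/flox mouse 4 gave -0.14, and leaving out hep-/- mouse 1 gave -0.57.

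Aifm2 stood at 62.8, 59.1, 60.5 and 62.0 CPM in flox/flox mice, the tightest group among the 10 genes with a coefficient of variation of 2.63%. In hep-/- mice it stood at 50.9, 56.3 and 74.9, with mice 1 and 2 below and mouse 3 above all controls. The log2 fold change was -0.01 (SE 0.18, 95% interval -0.41 to 0.39, adjusted p = 0.979 by edgeR), and its sign changed with the scaling of the libraries. Mouse 3 was also the hep-/- mouse whose B4galt1 transcript was near the control level, and without it the log2 fold change of Aifm2 was -0.20.

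**Figure D2:**
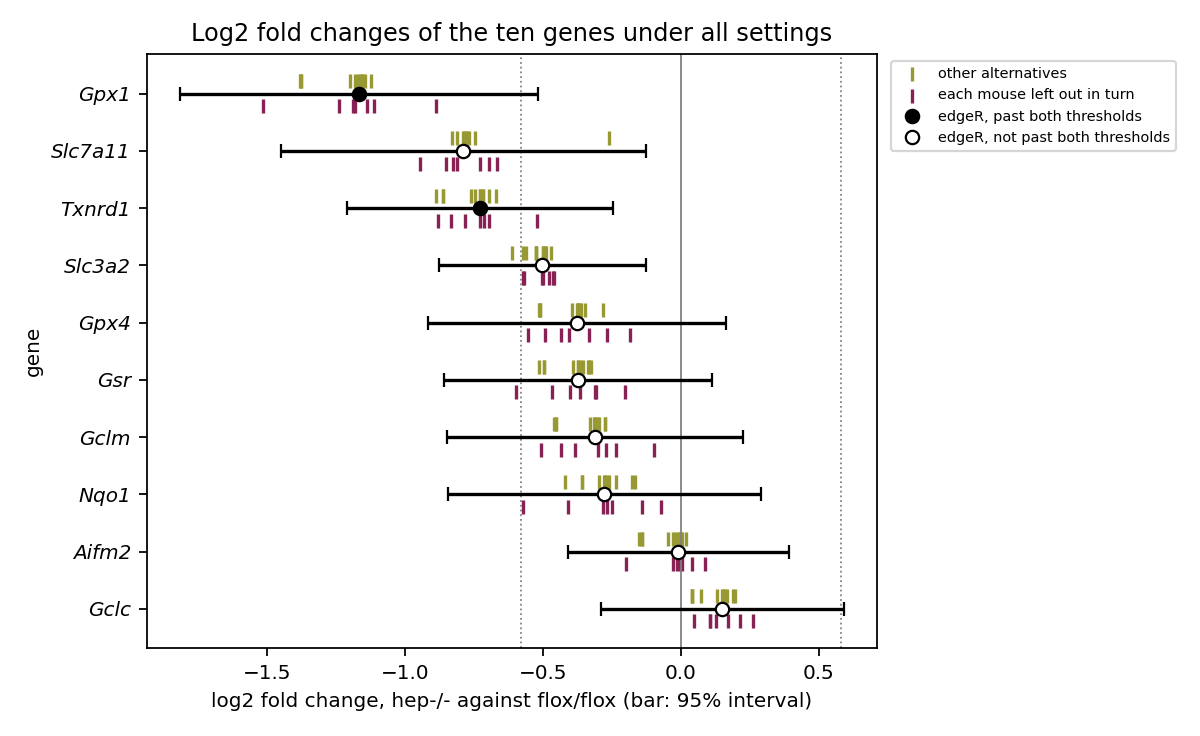
Log2 fold change of hep-/- against flox/flox liver (horizontal axis) for each of the 10 genes, with the edgeR estimate and its 95% interval (circle and bar, filled where adjusted p was under 0.05 and the size over 0.58), the estimates with each mouse left out (purple ticks) and under the other settings (olive ticks). Dotted lines mark the fold threshold of 0.58. Gpx1 lies lowest at -1.17 and Gclc highest at 0.15.

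The mice also differed from one another across the 10 genes. Hep-/- mouse 2 was the lowest of all 7 mice in 7 of the 10 genes, and hep-/- mouse 1 in 2 of them. Flox/flox mouse 1 was the lowest of its own group in 8 of the 10. Flox/flox mouse 2 was the highest of all mice in 5 genes, flox/flox mouse 4 in 4 and hep-/- mouse 3 in 1. Hep-/- mouse 2 also had the smallest library and the highest summed CPM of cholangiocyte markers (870 against 254 to 656 in the controls); the part of these in its low values was not tested. Without it, Gpx1 still passed the test (log2 fold change -0.89, adjusted p = 0.0430 by edgeR), whereas Txnrd1 did not (-0.52, adjusted p = 0.110).

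Levels were compared between genes as FPKM, which relates fragments to both transcript length and library size. In flox/flox liver the order of the mean FPKM was Gpx1 (1895 ± 147, SD, n = 4), Gpx4 (348 ± 42.8), Gclm (66.0 ± 10.7), Gclc (47.4 ± 6.66), Txnrd1 (40.1 ± 3.0), Gsr (32.0 ± 2.90), Aifm2 (11.3 ± 1.12), Nqo1 (6.52 ± 1.0), Slc3a2 (6.47 ± 1.04) and Slc7a11 (0.560 ± 0.147). Among neighbours in this order, the FPKM ranges of Gclm and Gclc, of Gclc and Txnrd1, and of Nqo1 and Slc3a2 overlapped. In hep-/- liver Gpx1 stayed first (756 ± 256 FPKM, SD, n = 3) and Gpx4 second (245 ± 40), while Gclc (48.4 ± 1.6) and Gclm (48.2 ± 9.91) could not be ordered, nor could Gsr (22.6 ± 4.39) and Txnrd1 (21.8 ± 3.96). The order of Aifm2 (10.3 ± 1.85), Nqo1 (4.92 ± 1.33), Slc3a2 (4.18 ± 0.547) and Slc7a11 (0.298 ± 0.0155) was the same by mean, with overlap between Nqo1 and Slc3a2.

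Ratios of transcripts within each mouse do not depend on how libraries were scaled against each other, and 5 were computed from FPKM. The ratio of Gclc to Gclm was 0.767, 0.758, 0.629 and 0.734 in flox/flox mice and 0.838, 1.33 and 0.952 in hep-/- mice. Every hep-/- mouse lay above every control, by 0.50 on the log2 scale between the means (exact permutation test, two-sided, p = 0.0286, and 0.0714 after Benjamini-Hochberg adjustment over the 5 ratios). The size rested in part on mouse 2, without which it was 0.31.

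The ratio of Gpx4 to Gpx1 was 0.163, 0.206, 0.164 and 0.203 in flox/flox mice and 0.338, 0.398 and 0.276 in hep-/- mice. Again the groups did not overlap, and the ratio was 1.82-fold higher in hep-/- liver, or 0.87 on the log2 scale (exact permutation test, p = 0.0286, adjusted 0.0714). The ratio of Slc7a11 to Slc3a2 overlapped between groups (log2 difference -0.25, exact permutation test, p = 0.429), so the transport chain was not shown to differ more than the heavy chain. The ratio of Aifm2 to Gpx4 overlapped as well (0.36, exact permutation test, p = 0.229), with 0.18 without hep-/- mouse 2 and 0.54 without hep-/- mouse 1.

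ACSL4 activates polyunsaturated fatty acids to their CoA esters, from which acyltransferases build them into the phospholipids that GPX4 protects, and the ratio of Acsl4 to Gpx4 set the substrate side beside the defence. It was 0.0682, 0.0643, 0.0597 and 0.0452 in flox/flox mice and 0.0346, 0.0293 and 0.0366 in hep-/- mice. The groups did not overlap, with flox/flox mouse 4 nearest to the hep-/- mice, and the log2 difference was -0.82 (exact permutation test, p = 0.0571, adjusted 0.0952). After adjustment 0 of the 5 ratios passed 0.05, and with 4 against 3 mice the smallest p the test can give is 0.0286.

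**Figure D3:**
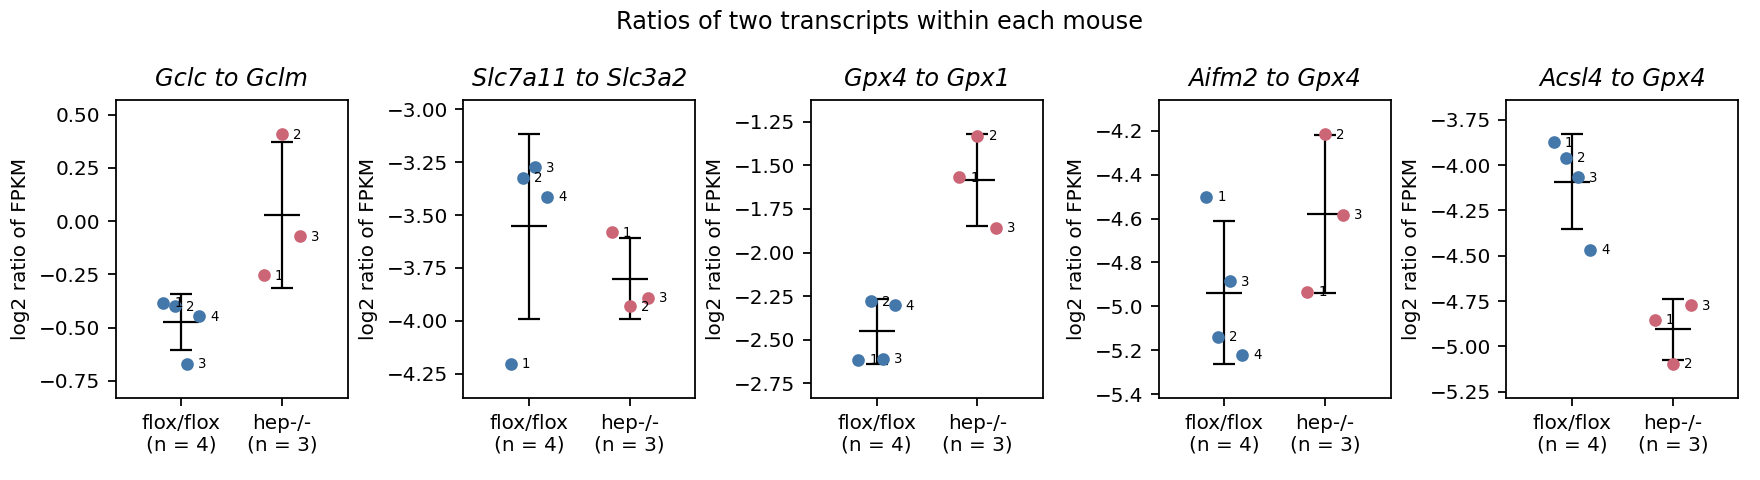
Log2 ratio of the FPKM of 2 transcripts (vertical axes) within each mouse, for flox/flox (blue, n = 4) and hep-/- liver (red, n = 3), with the mean and SD in black. Groups do not overlap for Gclc to Gclm, Gpx4 to Gpx1 and Acsl4 to Gpx4.

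The other genes of these pathways were taken from 11 lists with 126 genes, of which 120 were tested. By edgeR, 14 of the 120 were lower and 2 higher in hep-/- liver (33 and 8 at an unadjusted p under 0.05), with a median log2 fold change of -0.25. DESeq2, run on all genes with a count, called 21 lower and 4 higher of 124. The genes called by edgeR made up 13.3% of the 120, beside 15.8% of all genes tested called in either direction. On log2(FPKM + 1) values, where the share of higher calls over all genes was 24.5% and not 50.5% as in the counts, the split was 30 lower and 1 higher. Of the 16 genes called by edgeR, 4 (Slc6a6, Slc1a5, Cbr3 and Acsl4) were called with each mouse left out in turn and 12 lost the call without at least 1 mouse. Without hep-/- mouse 3, 13 of the 16 were still called and all 16 kept their direction. The calls of Ggt6 (-1.05 on the log2 scale), Pgd (-0.52) and Akr1b8 (-0.71) were lost, and those still called as lower ran from -1.49 for Cbr3 to -0.71 for Slc48a1, with Acsl4 at -1.40, while Slc1a5 was at 1.42. Ggt1 was at 2.54, but each of the other 6 omissions ended its call. Over all lists, 14 were then lower and 3 higher, and without flox/flox mouse 2, 3 were lower and 1 higher. The macrophage markers and the mitochondrial share differed between the same groups, and their part in these differences was not tested.

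Among 25 other NRF2 targets, 6 were lower and 0 higher by edgeR, beside 7.83% and 8.0% of all genes, and DESeq2 called 8 and 0. The unadjusted p was under 0.05 for 10 lower and 0 higher, beside 16.1% and 16.8%. Of the 25, 23 had a log2 fold change below 0 (median -0.53). Cbr3, a carbonyl reductase, fell from 4.82 ± 0.966 to 1.66 ± 0.433 CPM (-1.53, adjusted p = 0.0118 by edgeR). Ephx1, the microsomal epoxide hydrolase, fell from 353 ± 37.9 to 193 ± 33.5 CPM (-0.87, adjusted p = 0.0183). Slc48a1, a haem transporter, fell from 77.7 ± 3.41 to 46.8 ± 2.89 CPM (-0.73, adjusted p = 0.0157), and Taldo1, of the pentose phosphate pathway, from 150 ± 12.9 to 90.5 ± 18.3 CPM (-0.73, adjusted p = 0.0321). Without flox/flox mouse 2 the calls of Ephx1 and Slc48a1 were lost (adjusted p = 0.0638 and 0.0557 by edgeR), and that of Taldo1 was kept only without flox/flox mouse 1 or hep-/- mouse 3. The other called genes were Pgd (-0.62), which lost its call in each of the 7 omissions, and Akr1b8 (-0.93), which lost it in 6. Without flox/flox mouse 2, Cbr3 alone of the 6 was still called. In 12 of the 25 every hep-/- mouse was below every control in CPM, as in 15.0% of all genes. The list also holds genes with other regulators, and NRF2 activity was not measured.

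Of 11 regulators of NRF2, 0 passed the test by edgeR. There were 2 lower and 0 higher at an unadjusted p under 0.05, beside 16.1% and 16.8% of all genes. DESeq2 called 1 of the 11 lower (Sqstm1), and voom called 2 (Cul3 and Sqstm1). Nfe2l2, the gene of NRF2, stood at 83.1, 104, 105 and 114 CPM in flox/flox and at 80.0, 72.7 and 97.0 in hep-/- mice. Its ranges overlapped (log2 fold change -0.29, SE 0.19, adjusted p = 0.318 by edgeR). Keap1 (-0.14), Cul3 (-0.56) and Rbx1 (0.14), which make up the ligase that marks NRF2 for destruction, and Sqstm1 (-0.60), which sequesters KEAP1, had adjusted p-values by edgeR from 0.0795 to 0.650. The small Maf partners Mafg (0.54), Maff (0.05) and Mafk (-0.16), the repressors Bach1 (-0.32) and Bach2 (0.18), and the related factor Nfe2l1 (-0.11) had adjusted p-values from 0.153 to 0.928. The signs of Maff and Bach2 changed under some settings.

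In glutathione synthesis and turnover, 2 of 11 other genes were lower and 1 higher by edgeR, beside 7.83% and 8.0% of all genes. Lap3, a leucine aminopeptidase that can cleave the cysteine-glycine dipeptide left by glutathione breakdown, fell from 219.8 ± 24.5 to 112 ± 34.0 CPM (-0.98, adjusted p = 0.0219 by edgeR), and Ggt6 from 10.7 ± 3.23 to 5.42 ± 0.414 CPM (-0.98, adjusted p = 0.0335). Ggt1, the gamma-glutamyltransferase that starts glutathione breakdown, rose from 0.315 ± 0.121 to 1.38 ± 1.20 CPM (2.12, adjusted p = 0.0471). The level of Ggt1 was low throughout and the groups overlapped, with 0.395 CPM in hep-/- mouse 3 and 2.71 in mouse 2. Its call was kept with hep-/- mouse 3 left out and was lost with any of the other 6 mice left out (adjusted p by edgeR 0.0674 to 0.297), the log2 fold change being 1.17 without hep-/- mouse 2. DESeq2 called Ggt1 and voom did not. The call of Ggt6 was kept only without flox/flox mouse 3, and that of Lap3 was lost without flox/flox mouse 2 or 4 (adjusted p by edgeR 0.0511 to 0.0584).

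For the supply of cysteine and its relatives, 1 of 9 tested genes was lower and 1 higher by edgeR, beside 7.83% and 8.0% of all genes. With an unadjusted p under 0.05, 2 were lower and 3 higher, beside 16.1% and 16.8%. DESeq2 called the same pair. Voom added Cbs as lower (-0.67, adjusted p = 0.116 by edgeR), and limma on log2(FPKM + 1) added Cth as lower (-0.76, adjusted p = 0.152 by edgeR). Slc6a6, the taurine transporter, fell from 102 ± 23.1 to 45.3 ± 8.32 CPM (-1.17, adjusted p = 0.00946 by edgeR), and Slc1a5, the glutamine transporter ASCT2, which also carries cysteine, rose from 12 ± 4.59 to 30.0 ± 6.61 CPM (1.32, adjusted p = 0.0112). Both were called with each of the 7 mice left out in turn, which neither Gpx1 nor Txnrd1 was.

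The calls among the enzymes beside GPX1, GPX4 and TXNRD1 stand beside 7.83% lower and 8.0% higher over all genes by edgeR. Among 8 other glutathione peroxidases and glutaredoxins 1 was lower, Glrx5 of mitochondrial iron-sulfur cluster assembly, from 81.0 ± 13.6 to 36.7 ± 15.4 CPM (-1.14, adjusted p = 0.0215 by edgeR), a call lost without flox/flox mouse 2 or 4 (adjusted p = 0.0516 to 0.0535). Among 15 genes of the thioredoxin and peroxiredoxin system 0 passed by edgeR. Of these, 6 were lower and 0 higher at an unadjusted p under 0.05, beside 16.1% and 16.8% of all genes. DESeq2 called 2 lower (Prdx1 and Sesn3), voom 1 (Prdx1) and limma on log2(FPKM + 1) 3 (Prdx1, Prdx3 and Prdx6), each with 0 higher. Prdx1, which encodes an abundant cytosolic peroxiredoxin, was at 1094 ± 195 against 606 ± 208 CPM (-0.85, adjusted p = 0.0605), and Sesn3 at 3.06 ± 1.26 against 1.5 ± 0.341 CPM (-1.02, adjusted p = 0.103).

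Among 4 genes of superoxide and hydrogen peroxide removal 0 passed by edgeR, by DESeq2 or at an unadjusted p under 0.05, and limma on log2(FPKM + 1) called 1 lower (Cat). The values were -0.34 on the log2 scale for Sod3, the extracellular superoxide dismutase (adjusted p = 0.189), and -0.49 for Cat, catalase (adjusted p = 0.225). The selenoprotein machinery, on which Gpx1, Gpx4 and Txnrd1 depend, also gave 0 calls among 8 genes by edgeR and by DESeq2. Limma on log2(FPKM + 1) called 2 lower (Sephs2 and Selenop). In edgeR 0 were lower and 2 higher at an unadjusted p under 0.05, beside 16.1% and 16.8% of all genes. Those 2 were Sepsecs, which makes selenocysteine on its tRNA (49.1 ± 1.99 against 67.4 ± 4.89 CPM, 0.46, adjusted p = 0.0739), and Secisbp2, which reads the selenocysteine signal in the mRNA (14.5 ± 2.22 against 20.6 ± 3.39 CPM, 0.51, adjusted p = 0.102). Every hep-/- mouse lay above every control for both, and below every control for 3 others of the 8 (Sephs1, Sephs2 and Scly). Over all genes tested, 13.6% lay above and 15.0% below without overlap. The median log2 fold change of the list was -0.33.

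Defences that work without glutathione, beside AIFM2, were lower for 3 of 16 genes and higher for 0 by edgeR, with 5 lower and 1 higher at an unadjusted p under 0.05. DESeq2 called 4 lower, among them Pdss2, and 1 higher, Mboat1. Gch1, the first enzyme of tetrahydrobiopterin synthesis, fell from 140.0 ± 19.0 to 68.4 ± 28.0 CPM (-1.03, adjusted p = 0.0297 by edgeR). Spr, the last enzyme of the same pathway, fell from 99.5 ± 13.8 to 54.5 ± 19.4 CPM (-0.87, adjusted p = 0.0343), and Coq9 of coenzyme Q synthesis from 91.9 ± 2.59 to 56.0 ± 11.5 CPM (-0.72, adjusted p = 0.0276). The calls of these 3 genes were kept only without flox/flox mouse 1 or hep-/- mouse 3; leaving out flox/flox mouse 2, 3 or 4 or hep-/- mouse 1 or 2 ended each of them, with adjusted p-values by edgeR from 0.0537 to 0.0924. On the substrate side 1 of 9 tested genes was lower and 0 higher by edgeR, beside 7.83% and 8.0% of all genes. There 2 were lower and 0 higher at an unadjusted p under 0.05, and DESeq2 also called 1 lower and 0 higher. Acsl4 stood at 95.8, 132, 105 and 103 CPM in flox/flox and at 53.2, 30.3 and 64.9 in hep-/- mice. The groups were far apart, and Acsl4 fell by 1.14 on the log2 scale (adjusted p = 0.0153 by edgeR), and was called in all 19 alternatives.

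**Figure D4:**
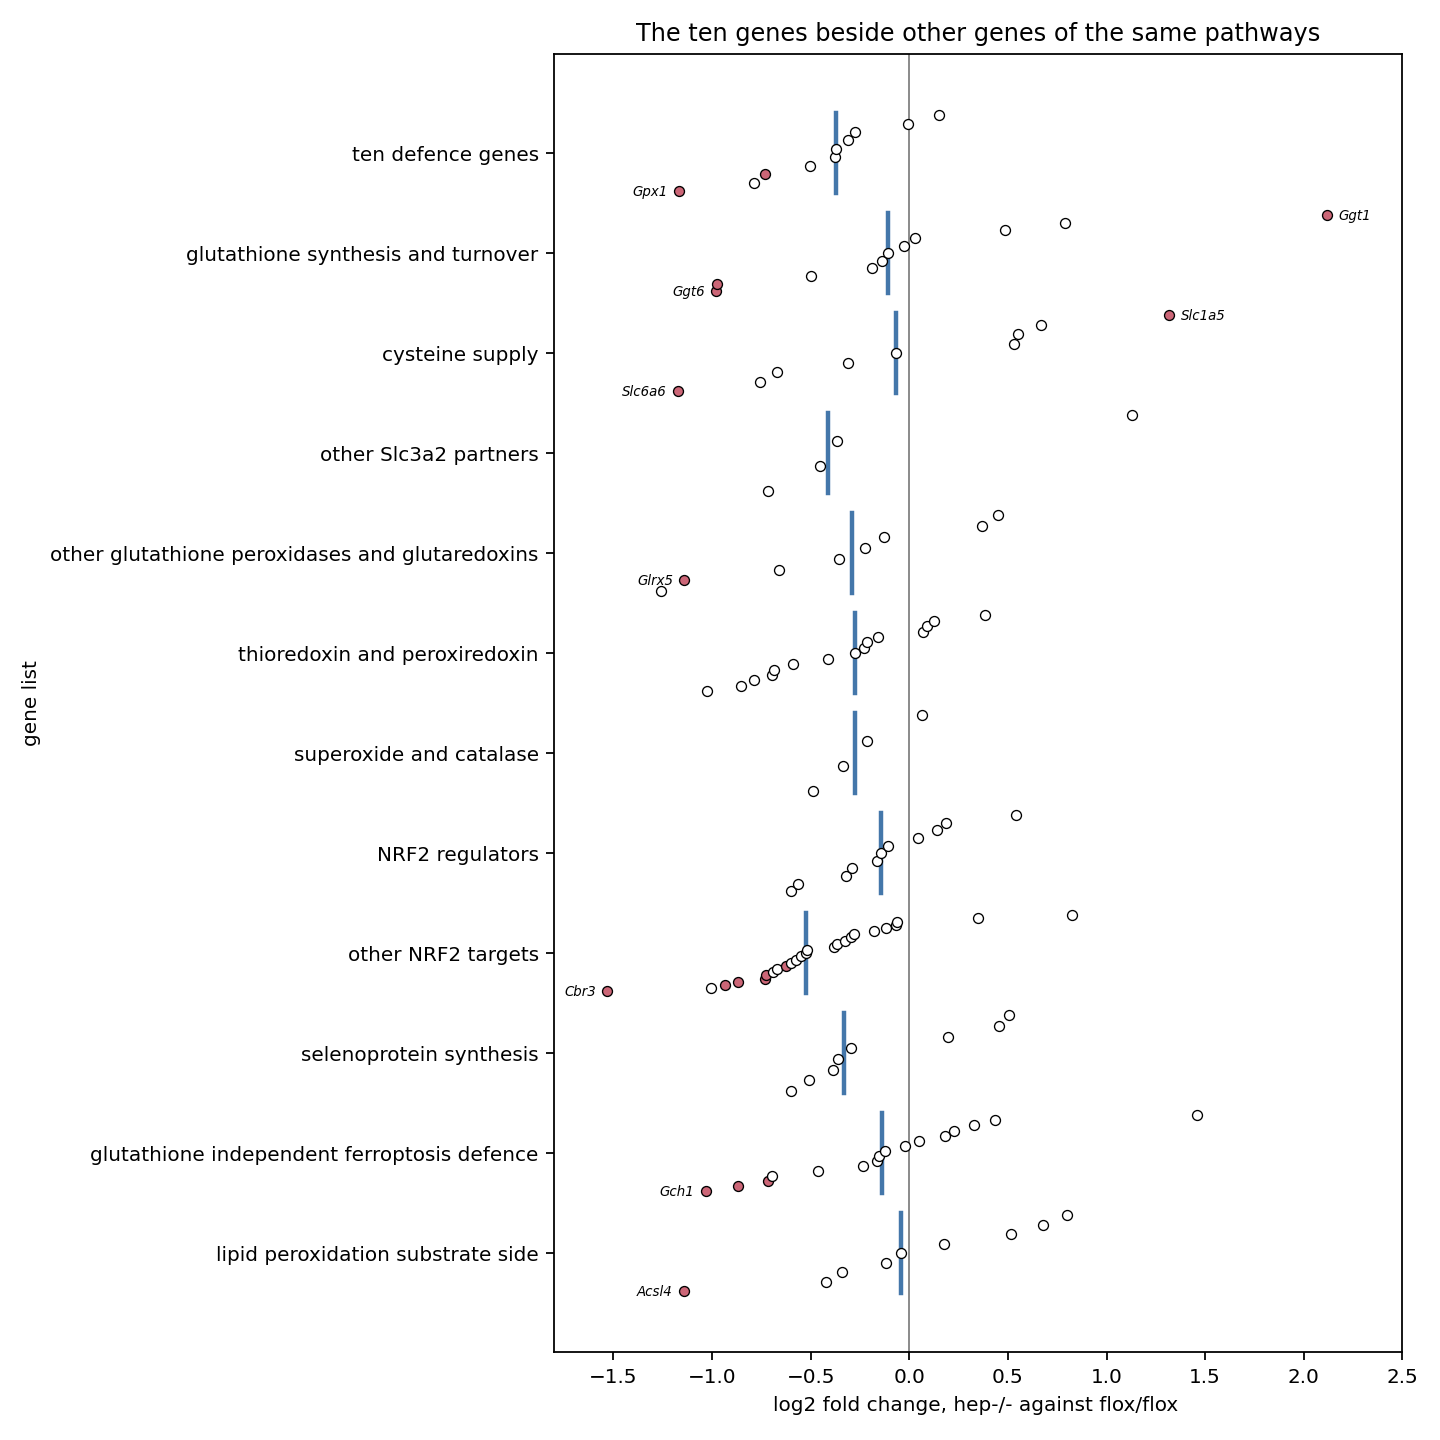
Log2 fold change of hep-/- against flox/flox liver (horizontal axis) for the 10 genes and for the tested genes of the 11 pathway lists (1 row per list), with 1 circle per gene, filled where it passed both thresholds, and a vertical bar at the median of each list. The lowest and highest called genes of most lists are named. The other NRF2 targets lie mostly below 0 (median -0.53), and the calls above 0 are Ggt1 and Slc1a5.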

How the data were processed

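RNA was sequenced from whole liver of 7 mice, 4 B4galt1 flox/flox and 3 labelled B4galt1 hep-/-, all after 15 weeks of CDAHFD. Samples were grouped by their labels. According to the submitters' processing notes, fastp, HISAT2, HTSeq, DESeq2 and R (3.2.0) were used with the GRCm39 genome build; the annotation is not given in the sources used here. The authors deposited raw read counts per gene, and FPKM values that they had computed per gene and library and that were used here for levels between genes, for ratios and for alternative tests.

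Counts of the 23347 genes were compared in R 4.3.3 by the quasi-likelihood method of edgeR 4.0.16 with TMM scaling, after the tool's filter on low counts (minimum count 10, total 15), with Benjamini-Hochberg adjustment over 15179 genes and thresholds of 0.05 and a log2 fold change of 0.58, as in the study's methods. The model was tested on simulated counts with known changes. Alternatives were DESeq2 (1.42.0) and limma (3.58.1), the latter as voom with sample quality weights, called voom here, and on FPKM values. These were log2(FPKM + 1) and log2(FPKM + 0.1) for genes of at least 1 FPKM in 3 mice. The rest were 2 other scalings, other filters, a replicate block and each mouse left out. Single values were compared by exact two-sided permutation tests. The labels do not tie replicate numbers to litters or cages, so the mice were treated as independent. Shared litters or cages could not be taken into account. The p-values set the difference between groups against the spread between mice within them. The number of counts per library limits counting error, and 3 counts corresponded to 0.0690 to 0.0987 CPM.

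The 10 genes and all lists were chosen with earlier results of these data known. Genes of the lists were named by rule: in each list up to 4 called genes with the lowest adjusted p, or, with none called, the 2 with the lowest p, and all tested regulators of NRF2. Some other genes are also named, where another test called them, the groups did not overlap or a call was lost. Promoters and gene overlaps came from GRCm38 annotation, and their coordinates were not combined with the GRCm39 counts.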

Additional observations from a re-analysis of the deposited data

Results flagged for a closer look

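Of 50 sets of 4 flox/flox values checked for a mouse far from the others (Dixon's ratio), 5 held one, and chance gives about 1 in 20. None of the 10 genes was among them by its CPM. Prdx1 was low in flox/flox mouse 1 (802 CPM, the other three reaching up to 1208 CPM), so its spread among controls rests on that mouse. Keap1 was low in flox/flox mouse 2 (44.7 CPM, against up to 50.8 CPM). Bach2 was high in flox/flox mouse 1 (3.54 CPM, against values from 2.13 CPM), and Spr in flox/flox mouse 4 (120.1 CPM, against values from 90.2 CPM). The log2 ratio of Slc7a11 to Slc3a2 was low in flox/flox mouse 1 (-4.20, against up to -3.27), and without that mouse the difference between the groups was -0.46 where all mice gave -0.25.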

How the results depend on the processing

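Gpx1 was below 0 in all 18 alternatives that kept the fold threshold (log2 fold change -1.51 to -0.89) and Txnrd1 likewise (-0.89 to -0.52); they were called in 13 and 12 of them. Slc3a2 was called in 1 of 18 (log2(FPKM + 0.1), -0.61) and Slc7a11 in 0 of 16. On that FPKM scale the median of all genes moved by -0.13, so negative values there are larger by about that much. With a replicate block the number of members called lower was 0 (Gpx1 -1.20, adjusted p = 0.0521, Txnrd1 -0.76, adjusted p = 0.133, both by edgeR), that of all genes 1225 and that of the pathway lists 7, against 2, 2404 and 16. This fit leaves out flox/flox mouse 4, whose number has no partner; without that mouse and with no block the numbers were 0, 1552 and 7. Deviations of same-numbered mice correlated at -0.337, -0.034 and 0.0777, so the numbers are not taken to pair the mice. With each mouse left out in turn, the members called lower numbered 0 to 2, all genes 885 (without flox/flox mouse 2) to 2396, and pathway genes 4 to 17. Such fits hold 3 against 3 or 4 against 2 mice. Pathway genes numbered 25 with DESeq2, 31 with log2(FPKM + 1) and 32 with log2(FPKM + 0.1), and all genes 1330 with log2(FPKM + 1) over every gene above 0. B4galt1 passed both thresholds on log2(FPKM + 1) (-0.67) and log2(FPKM + 0.1) (-0.73) and, in edgeR, without hep-/- mouse 3 (-0.96, adjusted p = 0.0138), but not on log2(FPKM + 1) over every gene above 0 (limma adjusted p = 0.108), and it ran from -0.96 to -0.30 with each mouse left out. Aifm2 was above 0 with relative log scaling (0.0022), upper-quartile scaling (0.0185) and at least 10 counts in every mouse (0.0047), and ran from -0.1971 to 0.0894 with each mouse left out. The causes of these differences were not tested. The 5 ratios kept their direction under CPM and with each mouse left out. Slc7a11 had the fewest counts of the 10 (89 to 258), and what counting error adds to its spread was not measured.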
